A study of Homo sapiens with 6 samples.

Results

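The clathrin adaptor subunits of AP-1 and AP-2 were read from every probe set of the array whose platform gene symbol is AP1M1, AP1M2, AP1B1, AP1G1, AP1S1, AP1S2, AP2M1, AP2A1, AP2A2 or AP2B1. A probe set is a group of short array probes that reads 1 transcript region. These 10 genes had 26 of the 54613 probe sets tested, and each gene had at least 1. The arrays were Affymetrix Human Genome U133 Plus 2.0 chips, with 3 of CRB3-expressing cells and 3 of vector control cells. Both groups are MCF-10A cells, an immortalized and non-transformed human mammary epithelial line grown in MCF-10 growth medium. The study states that EGF was present for the array comparison. In both groups the cells were infected with a retrovirus and selected with puromycin. The CRB3-expressing cells carry pNG-Crb3, which encodes human CRB3 with an amino-terminal myc tag, and the vector control cells carry the empty pNG vector. These names are from the sample labels, while the study's methods also describe moving tagged CRB3 constructs into another retroviral vector, pLNCX2. RNA was taken from proliferating monolayers at 70% confluence. The promoter that drives CRB3 in the vector, and whether the selected cells are a pool or a clone, are not given in the sources used here. RNA was prepared 3 times per group. Separate infections are not named for the replicates in the sources used here. A p-value therefore rests on how far these 3 preparations scatter, which may be technical. In the main test the variance of each probe set was also drawn towards that of all probe sets.

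Clathrin adaptors collect membrane proteins into clathrin-coated vesicles. AP-1 works at the trans-Golgi network and endosomes, and AP-2 at the plasma membrane, where it drives endocytosis. Each complex joins a pair of large chains (gamma and beta in AP-1, alpha and beta in AP-2), a medium mu chain that reads tyrosine-based sorting signals in the tails of cargo, and a small sigma chain. AP1M1 encodes the mu chain found in nearly all cells, while AP1M2 encodes the mu chain made by epithelial cells, and the AP-1 complex that contains it is known for sending cargo to the basolateral membrane.

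The DNA in front of AP1M2 is shown first because AP1M2 was the only member that passed the test between the groups, given below. It stands beside the same stretch of AP1G1, the gamma chain that AP1M2 assembles with, and of AP1S1, a small chain of the same complex. Each line gives the 250 bases before the annotated transcript start (RefSeq, GRCh38.p14), read along the gene, with the letters CACCTG in capitals.
AP1M2: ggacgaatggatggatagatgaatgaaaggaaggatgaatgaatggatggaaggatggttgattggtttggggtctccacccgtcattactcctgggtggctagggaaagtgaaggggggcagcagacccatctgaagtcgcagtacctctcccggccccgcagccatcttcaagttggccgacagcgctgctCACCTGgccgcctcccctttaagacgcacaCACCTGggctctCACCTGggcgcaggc
AP1G1: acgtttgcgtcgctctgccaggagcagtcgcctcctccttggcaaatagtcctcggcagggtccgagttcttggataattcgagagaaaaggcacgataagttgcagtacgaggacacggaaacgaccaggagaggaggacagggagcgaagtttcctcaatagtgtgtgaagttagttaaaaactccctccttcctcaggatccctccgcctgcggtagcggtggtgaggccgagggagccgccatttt
AP1S1: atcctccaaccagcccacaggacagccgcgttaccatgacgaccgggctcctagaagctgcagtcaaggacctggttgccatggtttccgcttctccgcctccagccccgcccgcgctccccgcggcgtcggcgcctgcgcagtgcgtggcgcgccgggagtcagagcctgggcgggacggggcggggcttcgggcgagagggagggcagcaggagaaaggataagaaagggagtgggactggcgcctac
The AP1M2 stretch lies on the minus strand at chr19:10587313-10587562, next to the gene at chr19:10572671-10587312. That of AP1G1 lies on the minus strand at chr16:71808835-71809084 and that of AP1S1 on the plus strand at chr7:101154226-101154475. CACCTG is an E-box, a form of the letters that repressors of the SNAI and ZEB families are known to bind. It was searched on both strands together with 3 other motifs, the GC box GGGCGG, the CCAAT box CCAAT and the TATA box TATAAA, after the AP1M2 stretch had been read. AP1M2 held CACCTG 3 times, starting 57, 27 and 15 bases before the transcript start, and all 3 lie on the gene's own strand. Of 35116 promoters of the same length, 17.5% held it at least once on either strand and 0.464% held it 3 times or more. It was in none of the other 8 member promoters in the RefSeq table, which had no entry for AP1M1. The GC box, in 42.6% of all promoters, was in 6 of the 9 members and not in AP1M2, AP1G1 or AP2B1. The CCAAT box, in 32% of all promoters, was in 4 of 9, namely AP1M2, AP1B1, AP1S2 and AP2A1. The TATA box, in 10.7% of all promoters, was in 0 of 9. No binding was measured here, so a match is a description of the letters only.

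**Figure D1:**
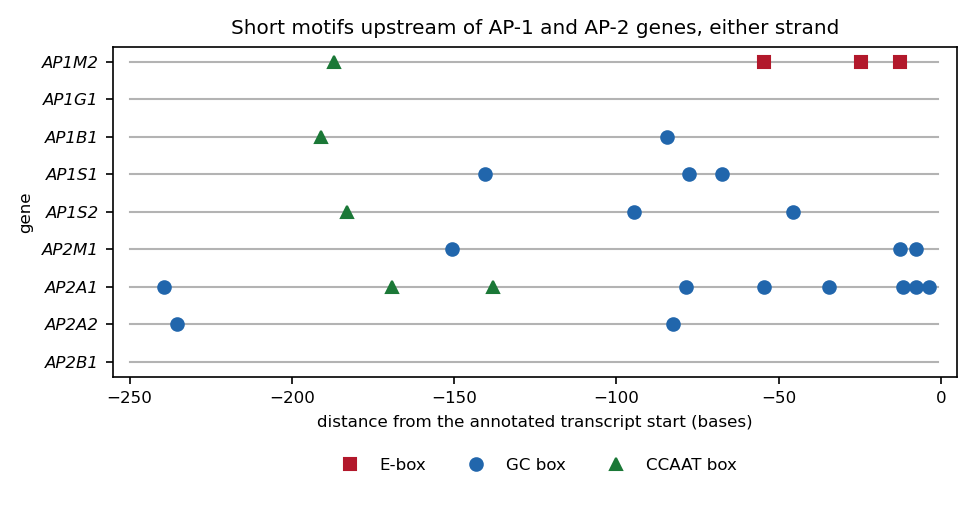
Positions of 3 short motifs on either strand (x axis, distance from the annotated transcript start in bases) in the 250 bases before 9 of the 10 member genes (y axis); red squares are E-boxes, blue circles GC boxes and green triangles CCAAT boxes. The 3 E-boxes of the set all lie before AP1M2, starting 57, 27 and 15 bases upstream, and AP2A1 holds 7 of the GC box matches.

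The arrays were close to each other, with a median log2 value per array between 5.84 and 5.88. The correlation (Pearson's r) over probe sets was 0.997 to 0.998 within groups and 0.994 to 0.996 between them. The CRB3 transcript stood at 12.11 ± 0.10 on the CRB3-expressing arrays and at 7.78 ± 0.17 on the vector control arrays (log2 value, SD, n = 3), as the labels have it. Of 11 epithelial markers, 7 had a single-gene probe set, and 6 of these had a mean log2 value over 9, among them KRT5 and EPCAM, while KRT19 lay at 4.96 and 5.13. Of 14 measured markers of blood, vessel, stromal, muscle and hormone-responsive or milk-secreting cells, 0 had a mean over 9 and 10 had one under 7.

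Expression of CRB3 went with a higher AP1M2 signal in both of its probe sets, and 0 of the 24 probe sets of the other 9 members passed the test. A probe set was called at the thresholds of the study's methods, a p under 0.05 from limma after Benjamini-Hochberg adjustment over all probe sets and a fold change above 1.5. By this rule 2 of 26 member probe sets were called, where 1.31% of all probe sets were. Both were higher, as were 0.948% of all probe sets, and 0 were lower, as were 0.363%. Without the fold threshold there were again 2 of 26, against 3.63% of all. With each gene read in its brightest single-gene probe set, 1 of 10 member genes was called, where 1.90% of 19775 genes were and 1.43% were higher. The median log2 fold change was -0.039 over the 26 member probe sets and 0.0012 over all probe sets.

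The brightest AP1M2 probe set had log2 values of 8.84, 9.11 and 9.11 in CRB3-expressing replicates 1, 2 and 3, and of 8.44, 8.31 and 8.48 in vector control replicates 1, 2 and 3. All 3 CRB3-expressing arrays lay above all 3 vector control arrays, and CRB3-expressing replicate 1 was the lowest of its group. The means were 9.02 ± 0.15 and 8.41 ± 0.090 (SD, n = 3), which differ 1.53-fold. This is a log2 fold change of 0.61 (SE 0.090, 95% interval 0.41 to 0.82, limma adjusted p = 0.00603).

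The second AP1M2 probe set had log2 values of 8.37, 8.29 and 8.50 on the CRB3-expressing arrays against 7.78, 7.66 and 7.66 on the vector control arrays, in the same order of replicates. Here too the groups did not overlap, but the lowest CRB3-expressing array was replicate 2. The difference was 1.61-fold, with a log2 fold change of 0.69 (SE 0.075, 95% interval 0.52 to 0.86, limma adjusted p = 0.00112). Over the 6 arrays the values of the 2 probe sets had a Pearson's r of 0.94, and after the group means were taken out r was 0.15, as a description of 6 points that share the group difference. An array reads the RNA of a whole culture, so more transcript per cell and more cells that make it cannot be told apart.

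The size of the rise lay close to the fold threshold, and both intervals reach below 1.5-fold. Without CRB3-expressing replicate 2 or 3, or without vector control replicate 2, the brightest probe set had log2 fold changes of 0.57, 0.57 and 0.56, under the 1.5-fold threshold of 0.58, with adjusted p = 0.0339, adjusted p = 0.0289 and limma adjusted p = 0.0283. When each probe set was tested on its own variance, without empirical Bayes, the limma adjusted p was 0.115 for the brightest and 0.0525 for the second probe set, and limma's treat, which tests for a change beyond 1.5-fold, gave an adjusted p of 1 for both.

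**Figure D2:**
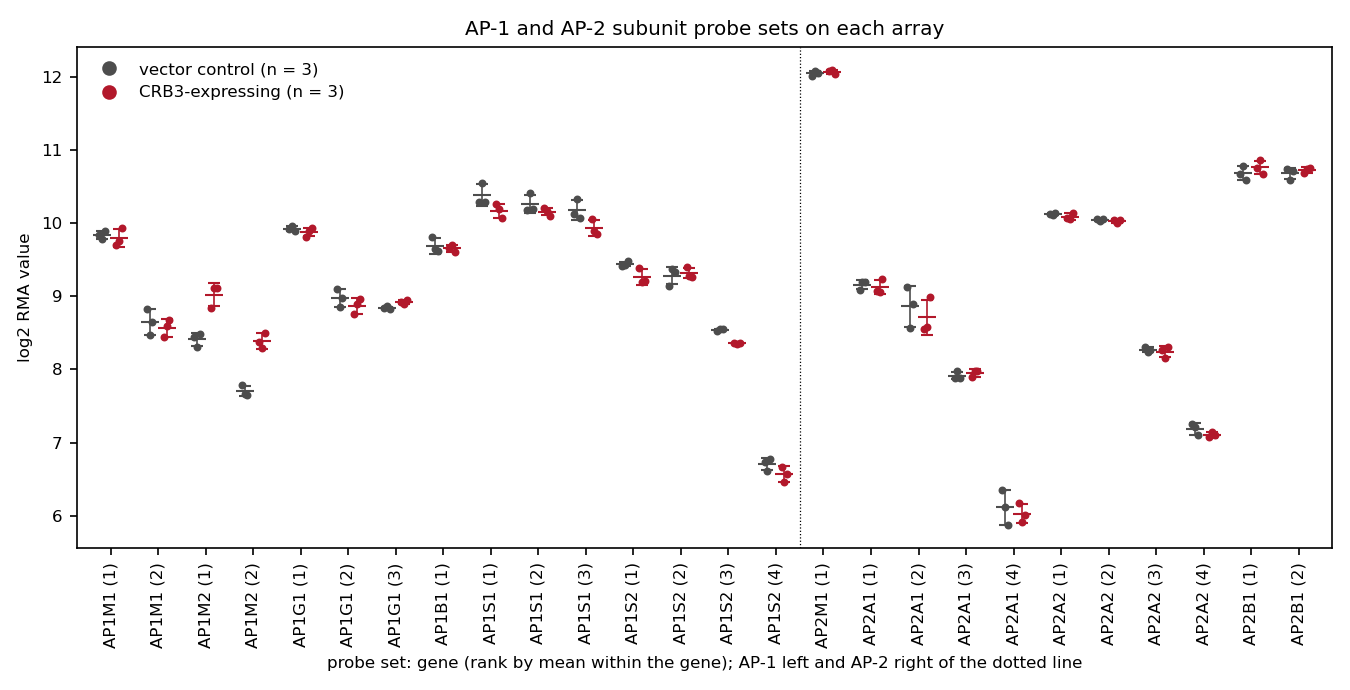
Log2 RMA value (y axis) of the 26 probe sets of AP-1 and AP-2 subunits (x axis, gene and rank by mean within the gene) in vector control cells (grey, 3 arrays) and CRB3-expressing cells (red, 3 arrays); each point is 1 array, with the group mean and its SD drawn as bars. Both AP1M2 probe sets stand apart, at 9.02 against 8.41 and 8.39 against 7.70, while heights of different probe sets cannot be compared with each other.

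AP1M1, the mu chain that occupies the same place in the complex as AP1M2, had log2 values of 9.70, 9.76 and 9.93 on the CRB3-expressing arrays against 9.84, 9.79 and 9.89 on the vector control arrays in its brightest probe set. The groups overlapped. The log2 fold change was -0.042 (SE 0.076, 95% interval -0.22 to 0.13, limma adjusted p = 0.841), and that of the second AP1M1 probe set was -0.077 (adjusted p = 0.772). The difference between the changes of both mu chains was tested on the log2 value of AP1M2 minus that of AP1M1 within each array. It was -0.86, -0.65 and -0.82 in CRB3-expressing cells and -1.40, -1.48 and -1.41 in vector control cells. The mean of this quantity was higher in CRB3-expressing cells by 0.65 on the log2 scale, with no overlap between the groups (p = 0.1, two-sided exact permutation test over 20 splits of the arrays). This is the smallest p that 3 arrays against 3 can give, and the pair was chosen with the AP1M2 result known. The offset between the chains within an array depends on the probes, so only its change between groups can be read.

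The large chains of AP-1 did not pass the test. AP1G1, the gamma chain, had 3 probe sets with log2 fold changes of -0.048, -0.10 and 0.077 from the brightest to the dimmest, which differ in sign. In the brightest, the CRB3-expressing arrays read 9.81, 9.88 and 9.93 and the vector control arrays 9.92, 9.96 and 9.89, and the groups overlapped. In the dimmest, the CRB3-expressing arrays (8.92, 8.89 and 8.94) lay just above the vector control arrays (8.83, 8.86 and 8.83), with an adjusted p of 0.575 from limma. AP1B1, the beta chain, has 1 probe set, which read 9.65, 9.70 and 9.61 on the CRB3-expressing arrays against 9.81, 9.64 and 9.61 on the vector control arrays. Its log2 fold change was -0.033 (95% interval -0.20 to 0.13, limma adjusted p = 0.874).

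The small chains AP1S1 and AP1S2 had lower means in CRB3-expressing cells in 6 of their 7 probe sets, and 0 of the 7 passed the test. Of all 54613 probe sets, 27061 had a lower mean. AP1S1 read 10.26, 10.18 and 10.07 on the CRB3-expressing arrays against 10.29, 10.55 and 10.29 on the vector control arrays in its brightest probe set. The groups did not overlap, although the highest CRB3-expressing and the lowest vector control array were close, and vector control replicate 2 was the highest array in all 3 AP1S1 probe sets. The log2 fold change was -0.21 (SE 0.089, 95% interval -0.41 to -0.0052, limma adjusted p = 0.294), and those of the other 2 were -0.10 and -0.24. Without vector control replicate 2 the log2 fold change of the brightest AP1S1 probe set was -0.12.

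AP1S2 read 9.38, 9.19 and 9.20 on the CRB3-expressing arrays against 9.42, 9.43 and 9.48 on the vector control arrays in its brightest probe set, with no overlap. The log2 fold change was -0.18 (95% interval -0.34 to -0.018, limma adjusted p = 0.254). The second probe set, of nearly the same brightness, went against it, at 0.034. The third had the smallest adjusted p of these 24 probe sets, 0.143 from limma, with 8.36, 8.35 and 8.36 on the CRB3-expressing arrays against 8.52, 8.55 and 8.55 on the vector control arrays (log2 fold change -0.18). The fourth had -0.14. Of all 24 probe sets of members other than AP1M2, 4 had an unadjusted p under 0.05 from limma, all 4 lower and all 4 of AP1S1 or AP1S2, where 16.3% of all probe sets had one and 8.16% had one with a lower mean. Groups did not overlap in 5 of the 24, 4 of them lower, where this was so in 21.8% of all probe sets and lower in 10.7%. Counted in either direction, neither the share with such a p nor the share without overlap stands apart from the background. Counted as lower only, both shares lay above the background. The sigma chains and this direction were singled out after their values were seen.

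The 11 probe sets of AP-2 had log2 fold changes between -0.15 and 0.082, and their groups overlapped in all 11. AP2M1, the mu chain of AP-2, read 12.08, 12.09 and 12.04 on the CRB3-expressing arrays against 12.01, 12.08 and 12.04 on the vector control arrays. Its log2 fold change was 0.022 (95% interval -0.11 to 0.16, limma adjusted p = 0.898). AP2B1, the beta chain, read 10.76, 10.86 and 10.67 against 10.68, 10.77 and 10.59 in its brightest probe set, with log2 fold changes of 0.082 there and 0.046 in the second.

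Both alpha chains of AP-2 were read by 4 probe sets each. AP2A2 had log2 fold changes between -0.084 and -0.015, and its brightest probe set read 10.06, 10.06 and 10.14 on the CRB3-expressing arrays against 10.12, 10.11 and 10.13 on the vector control arrays. AP2A1 read 9.07, 9.06 and 9.24 against 9.09, 9.20 and 9.19 in its brightest probe set (log2 fold change -0.036). The second AP2A1 probe set was the most scattered of all members, with 8.56, 8.58 and 8.99 on the CRB3-expressing arrays against 9.13, 8.57 and 8.89 on the vector control arrays. Its log2 fold change of -0.15 has a 95% interval from -0.51 to 0.20.

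A p that misses the threshold does not show that a subunit did not differ, but the intervals set a bound. For all 24 probe sets of members other than AP1M2, the 95% interval of the log2 fold change lay within 1.5-fold in either direction. This was also so for 52500 of all 54613 probe sets, so it does not set the members apart. Among the 24, the lowest bound was -0.51, of the second AP2A1 probe set, and the highest was 0.26, of the brightest AP2B1 probe set. These bounds hold for the array signal, which understates the change of a dim transcript.

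**Figure D3:**
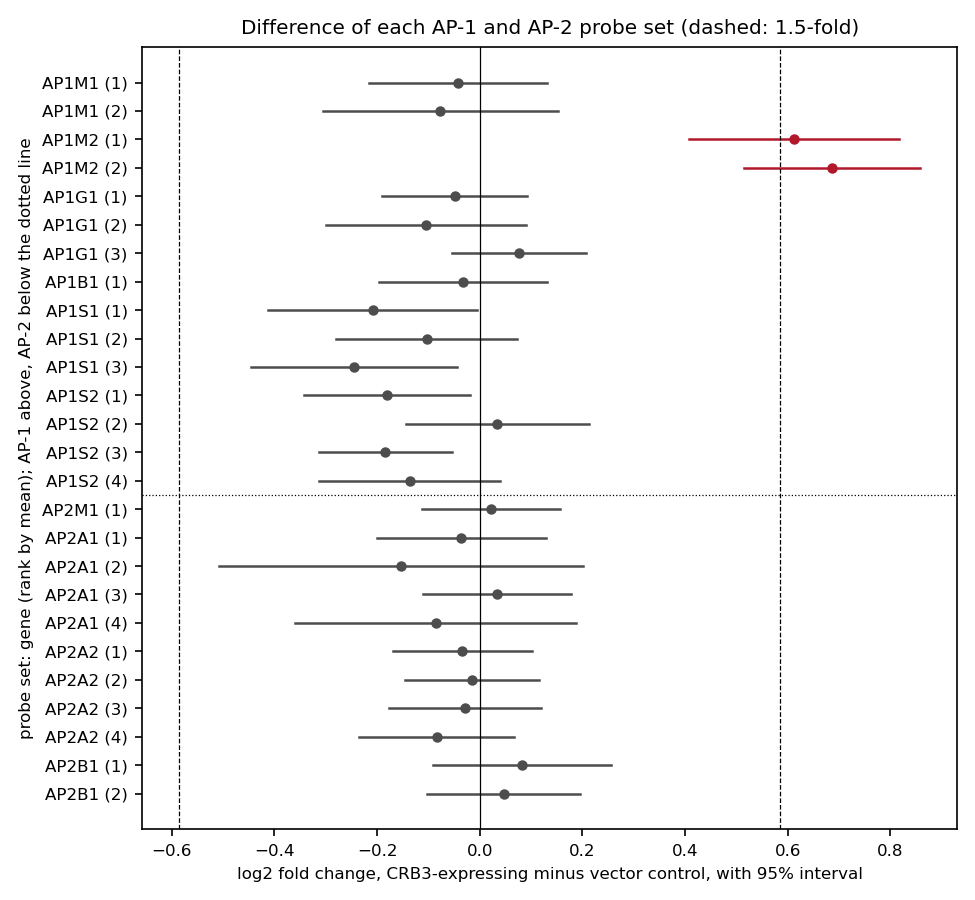
Log2 fold change (x axis, CRB3-expressing minus vector control, n = 3 arrays each) of the 26 AP-1 and AP-2 probe sets (y axis); lines are 95% intervals from limma, red marks called probe sets, and dashed lines mark 1.5-fold. The 2 AP1M2 probe sets lie at 0.61 and 0.69, and all 24 other intervals stay between the dashed lines, as do those of 52500 of all 54613 probe sets.

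The 3 remaining subunits of the same complexes, from a list of other AP-1 and AP-2 genes, did not pass both thresholds. AP1G2, an alternative gamma chain, read 10.18, 10.11 and 10.08 on the CRB3-expressing arrays against 9.92, 9.92 and 9.89 on the vector control arrays (log2 fold change 0.21, limma adjusted p = 0.109), and its other probe set, near a log2 value of 5, had -0.0025. AP1S3, an alternative sigma chain, had a mean of 10.05 on the CRB3-expressing arrays, all 3 of which lay below the vector control arrays with a mean of 10.29 (log2 fold change -0.24, adjusted p = 0.0879). All 5 AP1S3 probe sets had lower means in CRB3-expressing cells, with log2 fold changes between -0.28 and -0.20, and 1 of them had an adjusted p of 0.0488. AP2S1, the sigma chain of AP-2, had a log2 fold change of -0.049 in its brightest probe set, and -0.081 and -0.12 in the other 2.

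Around the adaptors, genes of 6 lists written from textbook knowledge were read in their brightest probe set. The lists were chosen with earlier results of these data known, so their counts beside the background are a description. Of 101 measured genes, 3 were called higher and none of the other 98 was called. Over all genes 1.43% were higher and 0.465% lower. By the adjusted p alone 6 of the 101 passed, all higher, where 5.14% of all genes did. At an unadjusted p under 0.05 from limma there were 26, of which 19 were higher and 7 lower. Of all 19775 genes, 3710 had such a p, and 1660 of these were lower. The median log2 fold change of the 101 list genes was 0.019, against 0.0066 over all 19775 genes. Of 13 measured subunits of AP-3, AP-4 and AP-5, adaptors of other routes, 0 were called, and 1 had an unadjusted p under 0.05 in each direction. AP5M1 had a log2 fold change of -0.18 in its brightest probe set (limma adjusted p = 0.178). Its other probe sets had -0.040, -0.24, -0.46 and 0.26, from the brighter to the dimmer. The one at -0.46 passed the p threshold (limma adjusted p = 0.0293) but lay under 1.5-fold. AP4S1 had a log2 fold change of 0.27 (limma adjusted p = 0.202), and its other probe sets had -0.11, 0.019 and 0.017.

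Of 7 clathrin chains and GGA adaptors, 0 were called. CLTB, a clathrin light chain, read 12.20, 12.20 and 12.24 on the CRB3-expressing arrays against 11.87, 11.88 and 11.84 on the vector control arrays. These groups lay far apart for their spread, but the difference was 1.27-fold, under the fold threshold (log2 fold change 0.35, limma adjusted p = 0.0118). Without CRB3-expressing replicate 3 the limma adjusted p was 0.0535. The next 2 CLTB probe sets had 0.31 and 0.32, and the dimmest, near 5, had -0.14. GGA1, a monomeric adaptor for mannose-6-phosphate receptors, had a log2 fold change of 0.091 (limma adjusted p = 0.685). The heavy chain CLTC was at 0.065 and the other light chain CLTA at 0.0012, both named here for their roles and not called. Of 18 AP-1 partners at the trans-Golgi network and endosomes, 0 were called. Of these, 7 had an unadjusted p under 0.05 from limma, 6 of them higher, where 3710 of 19775 genes had one. PI4K2A, a kinase that makes the phosphoinositide that recruits AP-1, passed the p threshold with a log2 fold change of 0.27 (limma adjusted p = 0.0451), and HEATR5A did not (0.24, adjusted p = 0.0920). The PI4K2A pass was lost when any 1 of the 6 arrays was left out (limma adjusted p between 0.0807 and 0.146), when the arrays were median-centred again (0.0560) and with the replicate number as a block (0.106). The other PI4K2A probe sets were also higher, at 0.17 (limma adjusted p = 0.223) and 0.20 (limma adjusted p = 0.227), and did not pass.

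Of 32 measured AP-2 partners at the plasma membrane, 1 was called higher and 0 lower, where 1.43% and 0.465% of all genes were. At an unadjusted p under 0.05 from limma there were 6, with 3 in each direction. DNAJC6, which encodes auxilin, a cochaperone that uncoats clathrin-coated vesicles, read 8.95, 8.96 and 8.73 on the CRB3-expressing arrays against 7.94, 8.0 and 7.98 on the vector control arrays. The groups were apart by several times their spread, a 1.87-fold difference (log2 fold change 0.91, SE 0.077, limma adjusted p = 0.000248). The second DNAJC6 probe set, at a log2 value of 3.80 and 3.85, had -0.047 and was not called, and the mean over both probe sets gave 0.43, under the fold threshold. NECAP2, an AP-1 and AP-2 partner named here after its values were seen, passed the p threshold alone, with a log2 fold change of 0.27 (limma adjusted p = 0.0352). Its other probe set had 0.071 (limma adjusted p = 0.655), and with any 1 of the 6 arrays left out the limma adjusted p of the brightest was between 0.0932 and 0.116.

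Of 28 measured genes of basolateral cargo and sorting machinery, 2 were called higher and 0 lower, where 1.43% and 0.465% of all genes were. At an unadjusted p under 0.05 from limma there were 8, of which 7 were higher, where 3710 of 19775 genes had one. CDH1, the adhesion receptor E-cadherin, which sits on the lateral membrane, read 11.95, 11.94 and 11.98 on the CRB3-expressing arrays against 10.79, 10.87 and 10.91 on the vector control arrays (log2 fold change 1.10, SE 0.063, limma adjusted p = 2.17e-05). CXADR, a junctional receptor whose basolateral sorting uses AP-1, read 9.93, 9.87 and 9.84 against 9.28, 9.28 and 9.28. Its log2 fold change was 0.60 (SE 0.059, adjusted p = 0.000598), and those of its other 3 probe sets were 0.67, 0.90 and 0.39, of which the last did not reach the fold threshold. Without CRB3-expressing replicate 1 the brightest CXADR probe set fell under that threshold, at 0.57. Both genes are epithelial as well as cargo. TFRC, the transferrin receptor, is named here for its role and did not pass the test, with a log2 fold change of 0.079 (limma adjusted p = 0.568).

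**Figure D4:**
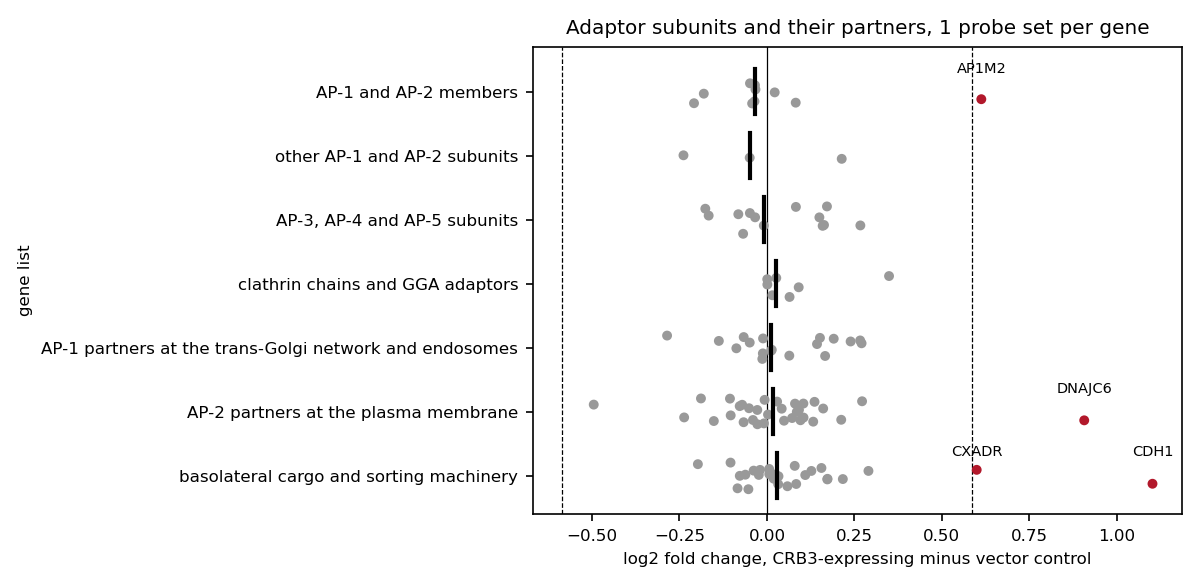
Log2 fold change (x axis, CRB3-expressing minus vector control) of the brightest probe set of each gene in the AP-1 and AP-2 member list and 6 lists of related genes (y axis); points stand for genes, with called ones in red and the others in grey, black bars are list medians and dashed lines mark 1.5-fold. AP1M2 (0.61), DNAJC6 (0.91), CDH1 (1.10) and CXADR (0.60) are the called genes, and the medians of all 7 lists lie within 0.05 of 0.

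Of the 7 measured epithelial markers, 2 were called higher, CDH1 and the basal keratin KRT14 with a log2 fold change of 1.83, where 1.43% of all genes were. EPCAM and KRT18 had an adjusted p under 0.05 but lay under 1.5-fold, so that 4 of 7 passed by the adjusted p alone, where 5.14% of all genes did. The other 3 had slightly lower means in CRB3-expressing cells and did not pass, with log2 fold changes of -0.040 for KRT5, -0.17 for KRT19 and -0.025 for ITGB4. The summed linear signal of the 7 was between 36874 and 38210 in CRB3-expressing cells and between 30265 and 30833 in vector control cells. For the 14 markers of other cell types it was 1632 to 1732 and 1735 to 1792, with DCN, a stromal proteoglycan, lower in its brightest probe set (log2 fold change -0.76) but under the fold threshold as a mean over its probe sets (-0.27). PTPRC, the defining marker of blood cells, read 4.19 and 4.16, and RMA values have no 0, so no marker can be called absent. The part of these markers in the AP1M2 difference was not tested.

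Among 1097 other genes with a mean log2 value of at least 6 and a log2 fold change of at least 0.3 in size, those whose values followed the brightest AP1M2 probe set most closely over the 6 arrays were CORO1A, CCDC92, CDR2L, PARD6A and SPINT1. Pearson's r was 0.997, 0.995, 0.993, 0.993 and 0.993 in this order, as a description of 6 points in 2 groups chosen from many genes. The second AP1M2 probe set had a lower r with the brightest, 0.94, so the ranking describes 1 probe set and not the gene. The log2 fold change was 0.89 for CDR2L, which was called, and between 0.31 and 0.36 for the other 4. PARD6A encodes a polarity protein and SPINT1 an inhibitor of epithelial serine proteases.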

How the data were processed

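Gene expression was measured on 6 Affymetrix U133 Plus 2.0 arrays. Background correction and normalization were done by the authors on all arrays at once with Robust Multichip Average (RMA) in R/Bioconductor, version not given in the sources used here. Their deposited values, 1 per probe set and array, are on the log2 scale and were taken as they stand. RMA models a probe set over all arrays, compresses changes of dim transcripts and gives no detection call. The precision is limited by the number of arrays.

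Groups came from the sample titles. limma 3.58.1 (R 4.3.3) was fitted with lmFit and eBayes to 54613 probe sets, leaving out 62 array controls, as CRB3-expressing minus vector control with no covariates and Benjamini-Hochberg adjustment over all. Symbols came from the platform annotation, matched by Entrez identifier to RefSeq GRCh38.p14 (0 changed, and 54 kept without a match). Each gene was read in the probe set that carries its symbol alone and has the highest mean over the 6 arrays. The fit was tested on simulated data with independent noise, which cannot test effects shared by the arrays of a group.

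The members, lists and tests were chosen with earlier results of these data known. Named were all members, in each list up to 6 called genes or, with none called, the 2 with the lowest p, and the 5 genes most like AP1M2. Alternatives were a replicate block, other variance models, array weights, further normalization, dim-probe filters, left-out arrays, other thresholds and other probe sets per gene.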

Additional observations from a re-analysis of the deposited data

How the results depend on the processing

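Of 19 alternative settings, those that changed only a threshold, variance model, block or filter left the AP1M2 estimate as it was by design. With no fold threshold, and without probe sets of the suffixes _s_at, _x_at and _a_at, its fit was the main one, so its pass was fixed. Over all 19, AP1M2 was higher in each, with log2 fold changes in its brightest probe set from 0.56 to 0.70. Under 13 of them it passed the test. It did not pass on each probe set's own variance without empirical Bayes (0.61, limma adjusted p = 0.115), with a 2-fold threshold (0.61), with treat against 1.5-fold (0.61, adjusted p = 1), or without 1 of 3 arrays. Under the first 3 of these, 0 member probe sets and 0 member genes were called. Calls over all probe sets also fell, from 716 to 379, 240 and 202 in this order. At an unadjusted p under 0.05 there were 5 member probe sets without empirical Bayes, 6 with the 2-fold threshold and 0 with treat. The 2-fold setting keeps the main fit, where 16.3% of all probe sets had such a p, and the shares under the other settings were not computed. With 1 array left out, between 1 and 2 member probe sets and between 0 and 1 member genes were called, and between 684 and 747 of all probe sets. AP1M2 then ranged from 0.56 to 0.70, and the change of AP1M2 relative to AP1M1 ranged from 0.59 to 0.70.

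None of the 169 values of the other 9 members under these settings passed the test, and 3 turned sign. AP1M1 was 0.0063 without CRB3-expressing replicate 1, within a range from -0.11 to 0.0063 when 1 array was left out. AP1B1 was 0.027 without vector control replicate 1, within a range from -0.069 to 0.027. AP1S2 became 0.034 when probe sets with the suffixes _s_at, _x_at and _a_at were left out, which puts another probe set in place. AP1G2 became -0.0025 in the same way. With a trended and robust variance prior, AP1S3 and AP1G2 passed the p threshold alone (limma adjusted p = 0.0125 and limma adjusted p = 0.0200). Both did so again with only probe sets above 6 on 3 arrays (limma adjusted p = 0.0270 and limma adjusted p = 0.0328). Their fold changes stayed under 1.5. Of the 6 related lists, 6 genes were called with no fold threshold, 1 with a 2-fold threshold, 1 with treat, 1 without those probe sets, when CDH1 and DNAJC6 have none left, and between 2 and 4 with 1 array left out. CXADR fell under the fold threshold without CRB3-expressing replicate 1 (0.57). As a mean over both probe sets, DNAJC6 was under it (0.43).

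The replicate numbers are not known to pair the samples, and the deviations of same-numbered arrays from their group means had correlations of -0.085, 0.064 and 0.029, with 2 of 6 arrays closest to their own number. With the replicate number as a block, AP1M2 stayed at 0.61 (limma adjusted p = 0.0155), while 2 member probe sets, 1 member gene and 3 genes of the lists were called. Over all probe sets 710 were called with the block and 716 without it.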
